A study of Mus musculus with 7 samples.

Results

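Oxidative phosphorylation genes were followed in the spleen of mice after a transplant across a tissue-type barrier. The members are the genes for the nuclear-encoded subunits of the respiratory chain and ATP synthase on the array, chosen by gene symbol alone (Nduf, Uqcr, Cox4 to Cox8 and Atp5 genes, Sdha to Sdhd, Cyc1 and Cycs). There are 86 such genes among 12393 on the array, read by 160 of 22626 probe sets. Each gene is represented by the probe set with the highest mean signal over the 7 arrays. By complex, 34 genes belong to complex I, 4 to complex II, 10 to complex III with cytochrome c, 16 to complex IV and 17 to complex V (ATP synthase). The symbol rule also took in 5 assembly factors of complex I (Ndufaf1, Ndufaf3, Ndufaf4, Ndufaf5 and Ndufaf7), which help build the complex and are not part of it, and they are kept apart.

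All mice were female C57BL/6 recipients (B6) aged 9 to 12 weeks that were given 10.0 Gy from a caesium source and, 4 to 6 h later, spleen cells depleted of red cells. In the syngeneic group (1 array) the donor was also B6, and the labels name no antibody. In the 3 allogeneic groups (2 arrays each) the donor was C3H/HeN, which differs from B6 in its major histocompatibility genes, and the model is acute graft-versus-host disease. These mice received a control antibody (isotype group) or an antibody against ICOSL, the ligand of the T cell costimulator ICOS, from day 0 or from day 3, as 500 µg and then 200 µg every other day. The day on which the isotype antibody began is not stated. All spleen cells were taken on day 4, so they hold donor and surviving host cells of every type. RNA of the allogeneic mice of a group was combined before it went onto its 2 arrays, and the labels do not say whether both arrays hold the same RNA, so p-values measure only how far those arrays spread, which may be technical. Any comparison with the syngeneic array changes the donor strain and the response to it together. It may also change the antibody treatment, since the labels name no antibody for the syngeneic mice. These cannot be told apart.

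Oxidative phosphorylation is the mitochondrial pathway that turns the energy of NADH and succinate into ATP. Complexes I and II pass electrons to ubiquinone, complex III passes them to cytochrome c, and complex IV passes them to oxygen, while complexes I, III and IV pump protons that drive ATP synthase. Activated lymphocytes are known to raise glycolysis strongly while they keep mitochondrial respiration running, and red cell precursors and macrophages are also rich in mitochondria. Most subunit genes lie in the nucleus, and the transcription factors NRF1, GABP and YY1 are known to act on many of their promoters.

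The promoters show what many of these genes share outside the array values. RefSeq promoter windows of build GRCm38.p6 (250 bases before to 50 after the start) were matched by symbol to 71 of the 86 genes, which gave 76 windows. The NRF1 core motif GCGCANGC stood in 31.6% of these windows (24), against 9.95% of all 32851 windows of the same length. The core motif of GABP and other ETS factors, CGGAAG, stood in 46.1% (35) against 16.9%. The YY1 motif AANATGGC stood in 21.1% (16) against 6.05%. At least 1 of the 3 motifs was found in 71.1% of the member windows and 27.5% of all windows. Both strands were searched, a window was counted once per motif, and none of the 3 motifs contains another. A match is a description of letters only. The motifs were spread unevenly over the complexes. The YY1 motif stood in 11 of 33 windows of complex I, in 4 of 18 of complex V and in 0 of the 3, 6 and 11 windows of complexes II, III and IV. The NRF1 motif stood in 3 of 3 windows of complex II and 1 of 11 of complex IV, and CGGAAG in 11 of 18 windows of complex V, in 5 of 5 of the complex I assembly factors and in 9 of 33 of complex I.

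The stretches below are the 200 bases before the start of 4 genes, printed because these genes are named in the array results. A link between the motifs and the changes was not tested. Cox6b2 is the member whose change passed the test, and Cox6b1 is its widely expressed partner isoform. Ndufaf4 had the largest difference from the syngeneic array after Cox6b2, and Uqcr10 had the highest positive change. Capitals mark matches to the 3 motifs on either strand. The Ndufaf4 stretch (chr4:24897883-24898082, plus strand) held 2 NRF1 matches, which overlap on opposite strands, and 1 CGGAAG match, and that of Cox6b1 (chr7:30626115-30626314, minus strand) held 2 CGGAAG matches. The stretches of Cox6b2 (chr7:4753095-4753294, minus strand) and Uqcr10 (chr11:4704345-4704544, minus strand) held 0 matches.
Cox6b2: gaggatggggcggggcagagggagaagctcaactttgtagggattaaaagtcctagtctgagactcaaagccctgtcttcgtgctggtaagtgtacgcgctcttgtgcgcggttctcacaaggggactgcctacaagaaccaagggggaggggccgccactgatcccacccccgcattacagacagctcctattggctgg
Cox6b1: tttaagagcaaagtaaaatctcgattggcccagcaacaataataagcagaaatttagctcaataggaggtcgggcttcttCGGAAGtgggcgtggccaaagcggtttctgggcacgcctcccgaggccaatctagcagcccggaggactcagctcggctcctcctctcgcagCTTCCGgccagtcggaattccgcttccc
Ndufaf4: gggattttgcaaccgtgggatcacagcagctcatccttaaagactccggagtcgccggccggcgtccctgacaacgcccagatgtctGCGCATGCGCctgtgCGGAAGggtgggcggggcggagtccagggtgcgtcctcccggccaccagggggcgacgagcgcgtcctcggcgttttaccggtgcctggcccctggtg
Uqcr10: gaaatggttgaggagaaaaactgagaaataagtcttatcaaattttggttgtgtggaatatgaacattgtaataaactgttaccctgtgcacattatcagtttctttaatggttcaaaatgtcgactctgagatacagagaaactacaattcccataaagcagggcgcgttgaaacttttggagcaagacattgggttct

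Signals are MAS5 units on a linear scale, with every array scaled to 1 common trimmed mean. Changes are differences of log2(signal + 50), which understate the change of dim genes, and each carries the standard error (SE) of the fit. A probe set was tested when at least 1 group mean reached 99.7 signal units, the 40th percentile of all signals. Of the 86 genes, 84 were tested and 81 reached that level in every group. Cox4i2, Cox6b2 and Cox7c reached it in some groups only. Cox7a1, the heart and muscle isoform, stayed between 7 and 43 units and Cox8b, another muscle isoform, between 3 and 85, so neither was tested. Genes counted as called had an adjusted p under 0.05 over all 15372 tested probe sets.

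Array medians lay between 145 and 174 signal units, and trimmed means between 500.18 and 500.19. For the Gapdh controls, the 3' over 5' signal, a check of RNA integrity, was 0.957 on the syngeneic array and 0.767 to 0.865 on the 6 allogeneic arrays. Between the 2 arrays of a group, the members differed by a median of 0.14 (isotype), 0.16 (day 0) and 0.09 (day 3) on the log2 scale. The same median over all tested probe sets was 0.24, 0.22 and 0.19, and over probe sets with a mean signal of at least 1000 it was 0.16, 0.16 and 0.10. Of the cell type markers with a probe set, 12 of 12 for T cells, 10 of 11 for B cells, 17 of 17 for macrophages, 11 of 11 for neutrophils and 11 of 13 for red cell precursors reached the signal set for testing. In such mixed samples, fewer cells of a type and less RNA per cell cannot be told apart.

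The allogeneic isotype arrays were first set against the syngeneic array. This compares the spleen after a mismatched transplant with control antibody and after a matched transplant, for which no antibody is named. The subunit genes were close on both sides. Of 84 tested members, 1 was called: Cox6b2 fell, and 0 rose. Among all tested probe sets 2.49% were called higher and 4.12% lower, so 1 member of 84 (1.19%) lay below that background. In sign, 48 members were higher and 36 lower on the isotype arrays, with a median change of 0.05, against −0.01 over all tested probe sets. Most members are bright, and the probe sets with a mean signal of at least 1000 had a higher median, 0.11, with 60.5% of them higher on the isotype arrays. Without isotype array 2 the members' median was 0.13, and without isotype array 1 it was 0.04. Changes ran from −1.55 to 0.82. The median absolute change was 0.20 for the members, 0.34 for all tested probe sets and 0.29 for those with a mean signal of at least 1000. A change of at least 2-fold (1 on the log2 scale) was seen for 1 member (1.19%) and for 11.0% of all probe sets.

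Most members had narrow intervals of the fit. These reflect the spread between duplicate arrays, which may be technical, and the lone syngeneic array adds none of its own. They do not bound the difference between spleens. The 95% interval of the change lay wholly within 2-fold in either direction for 67 of the 84 members (79.8%), against 47.6% of all tested probe sets and 65.9% of those with a mean signal of at least 1000. In complex V this held for 17 of 17 members by their chosen probe sets. The widest intervals were those of the dim genes Cox6a2 (−1.39 to 1.31) and Cox4i2 (−0.24 to 1.83), followed by the brighter Sdhc (−1.06 to 0.95) and Sdhd (−0.91 to 0.90), and their errors leave room for larger changes.

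**Figure D1:**
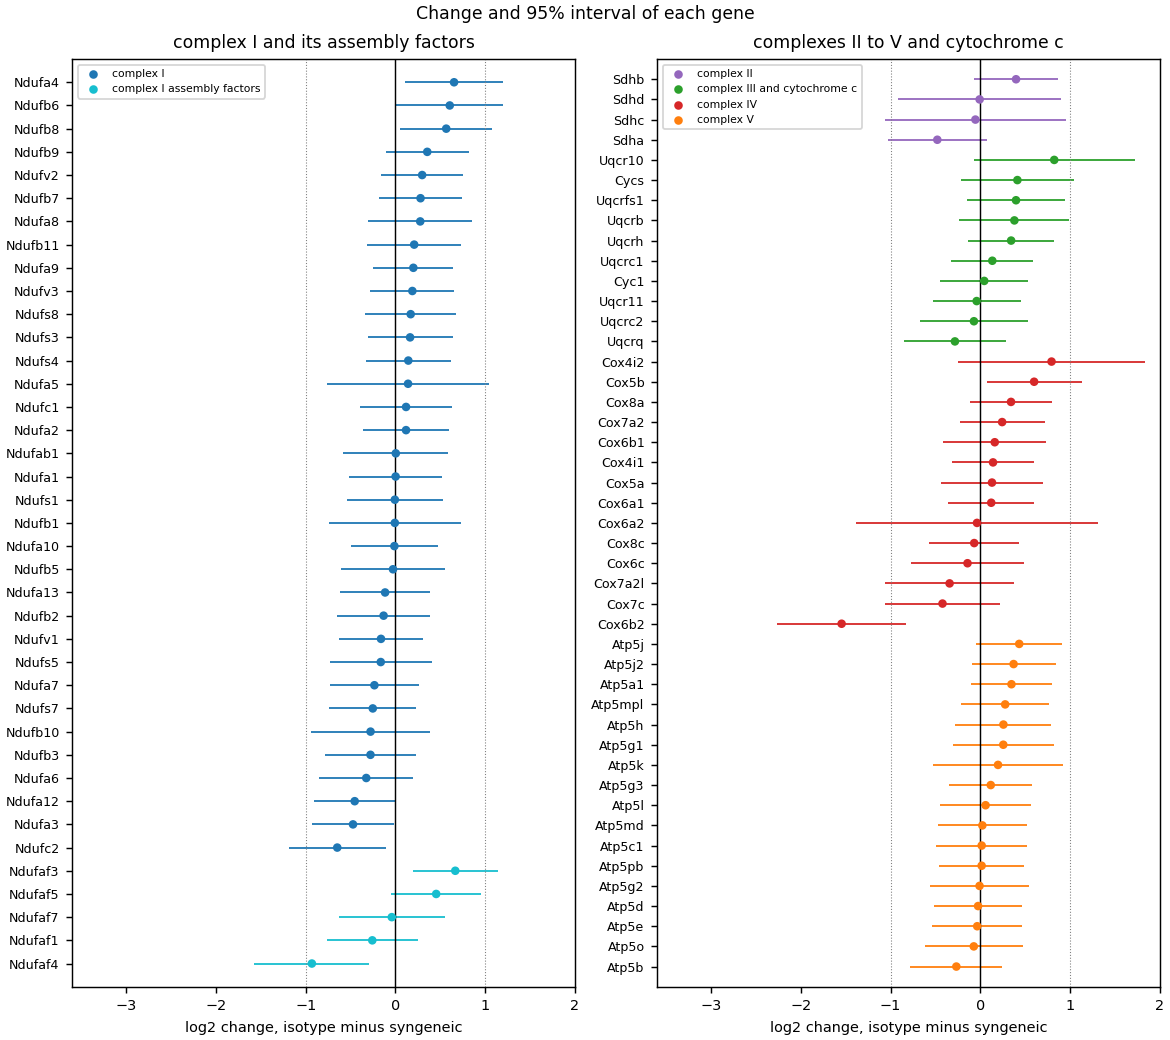
Change of each tested member between the isotype and the syngeneic arrays, with log2 change on the x axis, genes ordered within each complex on the y axis, and lines for the 95% interval of the fit. Dotted lines mark 2-fold. Cox6b2 at −1.55 is the member whose interval (−2.26 to −0.83) lies farthest from 0, and all 17 complex V intervals lie between the dotted lines.

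Arrays of both groups did not overlap for 59 members, with 41 (48.8%) wholly higher and 18 (21.4%) wholly lower on the isotype arrays. Over all tested probe sets 38.0% were wholly higher and 38.8% wholly lower, and over those with a mean signal of at least 1000 the shares were 52.0% and 30.4%. The syngeneic array was above all 6 allogeneic arrays for 15 members (17.9%) and below all 6 for 25 (29.8%), where all tested probe sets gave 26.4% and 26.0%. Across the 7 arrays the highest over the lowest value of a member, on the scale of signal + 50, had a median of 1.38-fold, against 1.74-fold over all tested probe sets. This ratio stayed under 1.5-fold for 59 members (70.2%), against 28.5% of all tested probe sets, and under 2-fold for 77.

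**Figure D2:**
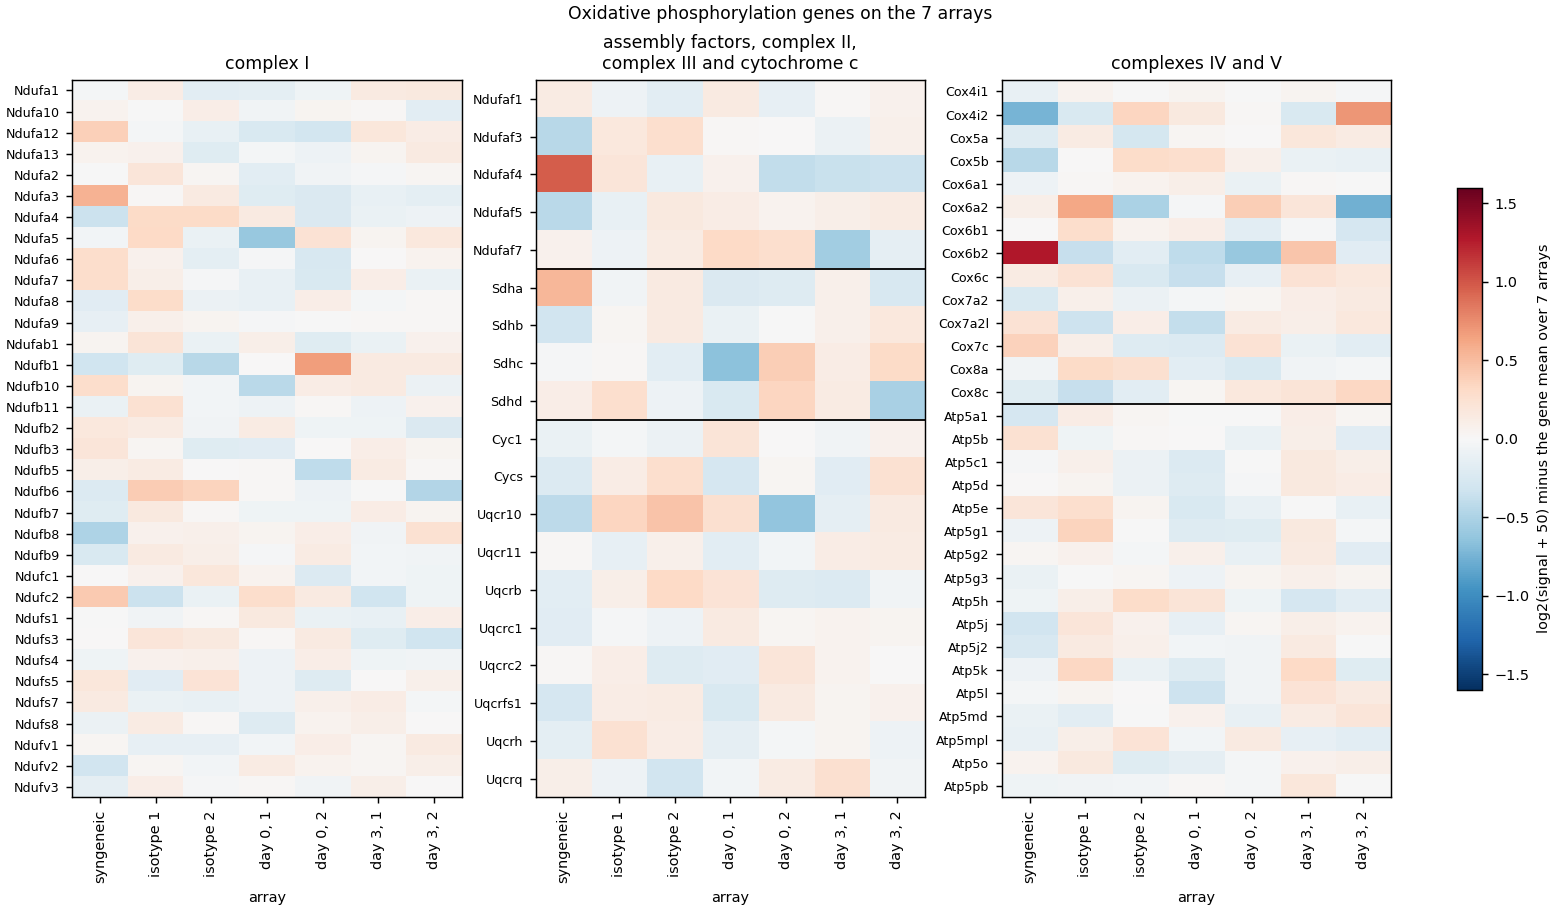
Deviation of each tested member on each of the 7 arrays from its own mean over those arrays, as log2(signal + 50), with arrays in columns and genes in rows grouped by complex. Most cells are pale, since 77 of 84 members stay within 2-fold over the arrays. The darkest cells are Cox6b2 and Ndufaf4 on the syngeneic array.

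Complex I, the NADH dehydrogenase (with Ndufa4, placed here by its symbol), had 18 members higher and 16 lower of 34, with a median change of 0.00 and 0 called. Ndufs1 and Ndufv1 carry iron-sulphur clusters and, in Ndufv1, the flavin that takes electrons from NADH. Ndufs1 read 1203 on the syngeneic array, 1164 and 1230 with isotype, 1354 and 1127 with blockade from day 0, and 1113 and 1309 from day 3. Its groups overlapped throughout (−0.01 ± 0.22 SE, adjusted p = 0.989). Ndufv1 read 1923 on the syngeneic array, 1713 and 1716 with isotype, 1822 and 2033 from day 0, and 1932 and 2090 from day 3. Both isotype arrays were the lowest of the 7, and the difference from syngeneic did not pass (−0.16 ± 0.20, adjusted p = 0.677). Ndufa9, an accessory subunit near the ubiquinone site, was within 2106 to 2456 on all 7 arrays, with the syngeneic value the lowest (0.20, adjusted p = 0.581). Ndufs8, another iron-sulphur subunit, was within 4356 to 5474 on all arrays.

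The largest positive changes among the Nduf genes grouped as complex I were those of Ndufa4, Ndufb6 and Ndufb8. Ndufa4, first purified with complex I and now known as a complex IV subunit, is one of them. It read 3597 on the syngeneic array, 5682 and 5685 with isotype, 5094 and 3912 from day 0, and 4260 and 4339 from day 3. All 6 allogeneic arrays were above the syngeneic one, and the isotype arrays were the highest (0.65 ± 0.23, adjusted p = 0.153). Ndufb8, a membrane-arm subunit, read 2284 on the syngeneic array, 3401 and 3406 with isotype, 3321 and 3470 from day 0, and 3115 and 3847 from day 3. Again the syngeneic array lay below every allogeneic array, and the test was not passed (0.57 ± 0.21, adjusted p = 0.181). Ndufb6 read 1281 on the syngeneic array, 2009 and 1940 with isotype, 1522 and 1414 from day 0, and 1494 and 1073 from day 3. Here the isotype arrays stood above all others, and a day 3 array lay below the syngeneic one (0.60, adjusted p = 0.211), while the other tested probe set of Ndufb6 gave 0.04.

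On the lower side of complex I were Ndufc2, Ndufa3 and Ndufa12. Ndufc2, a membrane-arm subunit, read 3754 on the syngeneic array, 2185 and 2585 with isotype, 3402 and 3089 from day 0, and 2235 and 2664 from day 3. The day 0 arrays lay between the syngeneic array and the rest (isotype against syngeneic −0.65 ± 0.22, adjusted p = 0.153), and its other tested probe set gave 0.01. Ndufa3 read 5835 on the syngeneic array, 4011 and 4375 with isotype, 3443 and 3353 from day 0, and 3627 and 3544 from day 3. Its syngeneic value was above all others (−0.47 ± 0.19, adjusted p = 0.206). For Ndufa12 the 3 tested probe sets gave changes from −1.08 to 0.61, so no direction can be given for the gene.

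Among the complex I assembly factors, Ndufaf4 and Ndufaf3 differed most and in opposite directions. Ndufaf4, which acts early in assembly, read 1503 on the syngeneic array, 857 and 681 with isotype, 782 and 556 from day 0, and 569 and 576 from day 3. Every allogeneic array was below the syngeneic one, yet the change did not pass (−0.93 ± 0.26, adjusted p = 0.0992), and the other tested probe set of Ndufaf4 gave 0.03. When the mean of all 3 allogeneic groups was set against the syngeneic array, an alternative added after the data were seen, Ndufaf4 passed (−1.13, adjusted p = 0.0343). That comparison called 3.98% of all probe sets higher and 5.76% lower, and 0 members higher and 2 lower, Cox6b2 and Ndufaf4. Ndufaf3 read 521 on the syngeneic array, 829 and 885 with isotype, 735 and 731 from day 0, and 680 and 776 from day 3. All allogeneic arrays exceeded the syngeneic value (0.67 ± 0.20, adjusted p = 0.110). With only probe sets above the 60th percentile tested, Ndufaf4 (adjusted p = 0.0389) and Ndufaf3 (adjusted p = 0.0459) both passed. That filter also raised the number called over all probe sets. Ndufaf3 passed under no other alternative. Ndufaf4 otherwise passed only with the trend and robust options of limma and with all 3 allogeneic groups. Ndufaf5 (0.45), Ndufaf1 (−0.26) and Ndufaf7 (−0.04) did not pass.

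Complex II is succinate dehydrogenase, which links the citric acid cycle to the chain. Its catalytic flavoprotein gene Sdha read 4025 on the syngeneic array, 2673 and 3084 with isotype, 2356 and 2395 from day 0, and 2927 and 2314 from day 3. The iron-sulphur subunit gene Sdhb read 3828 on the syngeneic array, 4855 and 5265 with isotype, 4396 and 4716 from day 0, and 5021 and 5343 from day 3. Thus the syngeneic array was above all 6 others for Sdha and below all 6 for Sdhb, and neither change passed (−0.48 ± 0.23, adjusted p = 0.276, and 0.40 ± 0.19, adjusted p = 0.290). The other tested probe set of Sdha gave −0.04. The membrane anchors Sdhc (−0.06 ± 0.42) and Sdhd (−0.01 ± 0.37) had the wide spread of their duplicate arrays, for example 995 and 2125 for Sdhc from day 0.

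Complex III, the cytochrome bc1 complex, and cytochrome c had the highest median of the complexes, 0.24, with 7 of 10 members higher and 0 called. Uqcrfs1, the Rieske iron-sulphur protein, read 2979 on the syngeneic array, 3912 and 3963 with isotype, 3052 and 4000 from day 0, and 3723 and 3798 from day 3. The syngeneic value was the lowest, close to a day 0 array (0.40 ± 0.23, adjusted p = 0.360). Uqcr10, a small accessory subunit, read 1493 on the syngeneic array, 2569 and 2792 with isotype, 2407 and 1282 from day 0, and 1810 and 2220 from day 3. The day 0 arrays lay far apart, and 1 of them was below the syngeneic value (isotype against syngeneic 0.82 ± 0.37, adjusted p = 0.254). The core protein gene Uqcrc1 was within 4462 to 5612 and Cyc1, the haem-bearing cytochrome c1, within 4053 to 5049, each with the syngeneic array lowest. Cycs, the mobile carrier cytochrome c, read 5331 on the syngeneic array, 6766 and 7469 with isotype, 5135 and 6368 from day 0, and 5492 and 7375 from day 3. A day 0 array lay below the syngeneic value (0.41 ± 0.26, adjusted p = 0.411). The other tested probe sets of Cycs gave 0.81 (adjusted p = 0.0698) and 0.79 (adjusted p = 0.111), each with the syngeneic array below all 6 others. Uqcrb, a small subunit with the brightest signal of the complex, read 15058 on the syngeneic array, 18100 and 21199 with isotype, 19703 and 14669 from day 0, and 14585 and 16285 from day 3. Its isotype arrays were above the syngeneic value, which the day 0 and day 3 arrays spanned (0.38 ± 0.25, adjusted p = 0.436). Uqcrq (−0.28), Uqcrc2 (−0.07) and Uqcr11 (−0.04) were the lowest of the complex.

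Complex IV, cytochrome c oxidase, holds the gene that was called and the tissue isoforms. Cox6b2, the testis isoform of subunit VIb, read 312 on the syngeneic array, 66 and 83 with isotype, 63 and 48 from day 0, and 152 and 82 from day 3. All 6 allogeneic arrays were below the syngeneic value, and the day 3 arrays overlapped the isotype arrays. It fell 2.92-fold on the scale of signal + 50 (−1.55 ± 0.30, adjusted p = 0.0335). The gene is dim, and it was tested because its syngeneic and day 3 values reached the signal set for testing, while its isotype and day 0 means did not. The size rests on 1 syngeneic array and on the constant of 50. Its call held in 9 of 17 alternative settings (adjusted p from 0.00825 to 0.101, log2 change from −1.87 to −1.24). The call ended without either isotype array (adjusted p = 0.101 and 0.0873) and without either day 0 array (0.0740 and 0.0731). It also ended with a constant of 16 in place of 50 (0.0551), with no filter on low signals (0.0706) and after quantile normalization (0.0563). Among the 9 settings, the choice of the lowest-mean probe set per gene had to hold, because Cox6b2 has only 1 probe set. The ubiquitous isoform Cox6b1 read 7243 on the syngeneic array, 8761 and 7484 with isotype, 7801 and 6419 from day 0, and 7110 and 6003 from day 3. Its groups differed by less than the interval of the fit (0.16, 95% interval −0.41 to 0.73, adjusted p = 0.744).

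**Figure D3:**
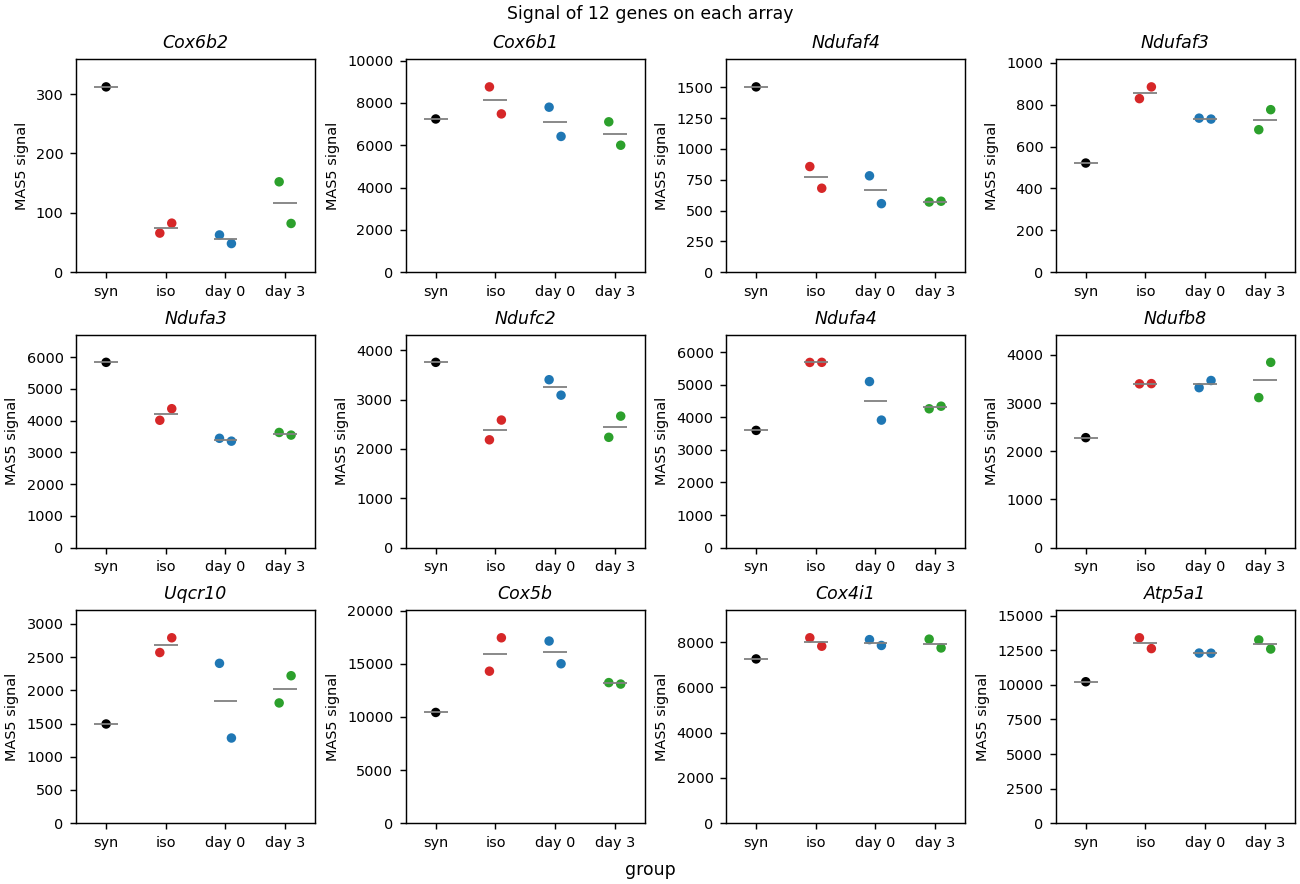
MAS5 signal of 12 genes on each array, with the group on the x axis (syn is syngeneic, iso is isotype, day 0 and day 3 are the anti-ICOSL groups), points for arrays and bars for group means. Cox6b2 reads 312 on the syngeneic array and 48 to 152 on the others, while Cox4i1 stays between 7260 and 8196 on all 7.

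The other isoform pairs of complex IV gave no call. Cox4i1, the common isoform of subunit IV, was among the steadiest members, at 7260 on the syngeneic array, 8196 and 7822 with isotype, 8114 and 7855 from day 0, and 8135 and 7746 from day 3 (0.14 ± 0.19, adjusted p = 0.712). Cox4i2, the lung isoform that is induced by low oxygen, read 51 on the syngeneic array, 94 and 165 with isotype, 140 and 122 from day 0, and 93 and 228 from day 3. The syngeneic array was the lowest, but the duplicates differed widely (0.79 ± 0.43, adjusted p = 0.335). Cox6a1 was within 11458 to 13239 on all arrays (0.12), and the muscle isoform Cox6a2 within 58 to 233 (−0.04 ± 0.56). Cox7a2 read 7816 on the syngeneic array and 8706 to 10266 on the others (0.24), and Cox7a2l, which takes part in joining complexes III and IV, read 3329 and 2172 to 3193 (−0.34). Cox8a, the common isoform of subunit VIII, read 8625 on the syngeneic array, 11098 and 10777 with isotype, 7967 and 7557 from day 0, and 8599 and 8820 from day 3. Here the isotype arrays were above the other 5, and the syngeneic value lay among the anti-ICOSL arrays (0.34 ± 0.19, adjusted p = 0.341). The other tested probe set of Cox8a gave a like change (0.40) but another order, with the syngeneic array, at 6659, below all 6 others and an isotype array, at 8152, below a day 0 array, at 8324.

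Cox5a and Cox5b encode the subunits that sit at the matrix side. Cox5a read 11365 on the syngeneic array, 14354 and 10766 with isotype, 13463 and 13193 from day 0, and 14841 and 14425 from day 3. The day 3 arrays were the highest, and the isotype arrays spread over the values of the syngeneic and day 0 arrays (isotype against syngeneic 0.13 ± 0.23). The other tested probe sets of Cox5a gave 0.31 (adjusted p = 0.448) and 0.85 (adjusted p = 0.119), with other orders. In the former the syngeneic array was below all 6 others, and in the latter both isotype arrays were above all others. Cox5b read 10422 on the syngeneic array, 14308 and 17454 with isotype, 17146 and 15007 from day 0, and 13232 and 13094 from day 3. The syngeneic array was below all 6 others (0.60 ± 0.22, adjusted p = 0.172), but the 5 tested probe sets of Cox5b ran from −0.75 to 0.76. The negative change came from a dim probe set (mean signal 149), and the others ran from 0.42 to 0.76. Cox7c, read by a dim probe set (87 to 156), was −0.42 (adjusted p = 0.402).

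Complex V was the most even, as read by the chosen probe sets. Its 17 members had 12 higher and 5 lower, changes from −0.27 to 0.43 (median 0.06), 0 called, and a ratio of highest to lowest array under 1.5-fold in every member. Atp5a1 and Atp5b encode the alpha and beta subunits of the catalytic head. Atp5a1 read 10231 on the syngeneic array, 13413 and 12630 with isotype, 12307 and 12298 from day 0, and 13257 and 12598 from day 3. Atp5b read 9075 on the syngeneic array, 7296 and 7767 with isotype, 7720 and 7145 from day 0, and 8210 and 6801 from day 3. The syngeneic array was thus below all 6 others for Atp5a1 (0.35 ± 0.19, adjusted p = 0.338) and above all 6 for Atp5b (−0.27 ± 0.21, adjusted p = 0.513). The tested probe sets of Atp5a1 did not share a sign (−0.72 to 0.35), and the lowest change came from a dim one (mean signal 85). The other tested probe sets of Atp5k gave 0.24 and 0.59, with ratios of highest to lowest array of 1.91-fold and 1.56-fold. The interval of the latter (−0.10 to 1.28) reached past 2-fold. Atp5j (0.43, adjusted p = 0.261) and Atp5j2 (0.37, adjusted p = 0.321), a stalk and a membrane subunit, were also higher without passing. Atp5e (−0.04), Atp5o (−0.07) and Atp5md (0.02) were near 0.

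Several probe sets of a gene did not always tell the same story. Of 44 members with over 1 tested probe set, 14 had probe sets of opposite sign in isotype against syngeneic, among them Ndufaf4, Ndufc2, Ndufs8, Ndufv2, Uqcrq and Cox6c. In Cox5b, whose negative probe set is dim, and in Ndufa12 they lay past 0.5 in both directions. Against isotype, 26 of the 44 had probe sets of opposite sign with blockade from day 0 and 27 from day 3, and between the schedules 24 did. The median range between probe sets of a gene was 0.26, and 1 of the 151 tested member probe sets, that of Cox6b2, was called. The chosen probe sets include 12 with the suffix _s_at and 7 with _x_at, whose probes can match other transcripts (such as those of Ndufa3, Ndufa12, Ndufc2, Sdhc, Cox5b and Cox8a), so their signals may include related sequences.

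Setting day 0 against isotype arrays asks what ICOSL blockade from the transplant onward changes. It uses the same 2 isotype arrays as the comparison above and the next. Limma called 0 of 84 members and 0% of all tested probe sets, with 2 members and 1103 of all 15372 probe sets at an unadjusted p under 0.05. The smallest adjusted p of a member was 0.608. By sign 23 members were higher and 61 lower on the day 0 arrays, with a median of −0.08 against 0.02 over all tested probe sets and −0.03 over those with a mean signal of at least 1000. Complex V had 15 of 17 members lower and complex I 27 of 34. The intervals of 80 members lay within 2-fold. Arrays did not overlap for 11 members on the higher side (13.1%) and 24 on the lower side (28.6%), against 19.4% and 16.2% of all tested probe sets and 14.4% and 21.6% of those with a mean signal of at least 1000. The highest changes were those of Ndufb1 (0.66, adjusted p = 0.680), Ndufc2 (0.44, adjusted p = 0.697) and Cox8c (0.37, adjusted p = 0.736). Ndufb1 read 292 and 237 with isotype and 343 and 573 from day 0, so the arrays did not overlap but the day 0 pair was far apart. The lowest were Uqcr10 (−0.59, adjusted p = 0.769), Cox8a (−0.49, adjusted p = 0.608) and Ndufb6 (−0.42, adjusted p = 0.750). Other tested probe sets of these genes gave −0.05 and −0.83 for Uqcr10, −0.14 for Cox8a, 0.16 for Ndufb6 and 0.01 for Ndufc2.

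Blockade from day 3 was compared with isotype in the same way. Of 84 members 0 were called, as were 0% of all probe sets, with 3 members and 1573 probe sets at an unadjusted p under 0.05. The smallest adjusted p of a member was 0.412. Members split into 40 higher and 44 lower with a median of −0.01 (all tested probe sets 0.03), and 77 intervals lay within 2-fold. Wholly higher on the day 3 arrays were 21 members (25.0%) and wholly lower 22 (26.2%), against 24.3% and 18.8% of all tested probe sets and 19.4% and 29.6% of those with a mean signal of at least 1000. Cox8c, the testis isoform of subunit VIII, read 346 and 403 with isotype and 537 and 590 from day 3 (0.53, adjusted p = 0.412). Ndufb1 (0.47, adjusted p = 0.561) and Cox6b2 (0.40, adjusted p = 0.607) were the next highest. Ndufb6 had the lowest change (−0.62, adjusted p = 0.417), followed by Ndufs3, a core subunit of complex I (−0.43, adjusted p = 0.462), and Atp5h, of the peripheral stalk (−0.41, adjusted p = 0.511). The other tested probe sets of Ndufb6 (0.38) and Atp5h (0.12) went the opposite way. When arrays were centred on their medians, all tested probe sets went from a median of 0.03 to −0.07 in this comparison. The members then stood at 24 higher and 60 lower. After quantile normalization 47 were higher and 37 lower, and the difference of the members' median from that of all probe sets went from −0.04 to 0.03, so the members have no stable direction here.

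Day 0 and day 3 arrays were compared directly, which tests the difference between the schedules. Again 0 of 84 members and 0% of all probe sets were called, with 3 members and 1043 probe sets at an unadjusted p under 0.05 and a smallest adjusted p of 0.689 among members. On the day 0 arrays 26 members were higher and 58 lower (median −0.07, all probe sets −0.01), and 79 intervals lay within 2-fold. With arrays centred on their medians the split was 38 and 46 (median −0.02), and after quantile normalization 27 and 57. Arrays did not overlap for 8 members on the higher side (9.52%) and 30 on the lower side (35.7%), against 18.6% and 20.4% of all tested probe sets and 23.3% and 19.4% of those with a mean signal of at least 1000. Ndufaf7, an assembly factor that methylates a complex I subunit, had the highest change, with 291 and 281 from day 0 and 136 and 198 from day 3 (0.65, adjusted p = 0.689). Cox6a2 (0.48) and Ndufc2 (0.40) came next. Cox6b2 (−0.63, adjusted p = 0.728), Cox6c (−0.45, adjusted p = 0.754) and Ndufa12 (−0.42, adjusted p = 0.712) were the lowest. For Ndufa12 the other tested probe sets gave 0.24 and 0.01, so again no direction can be given, and for Cox6c the other gave −0.38.

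**Figure D4:**
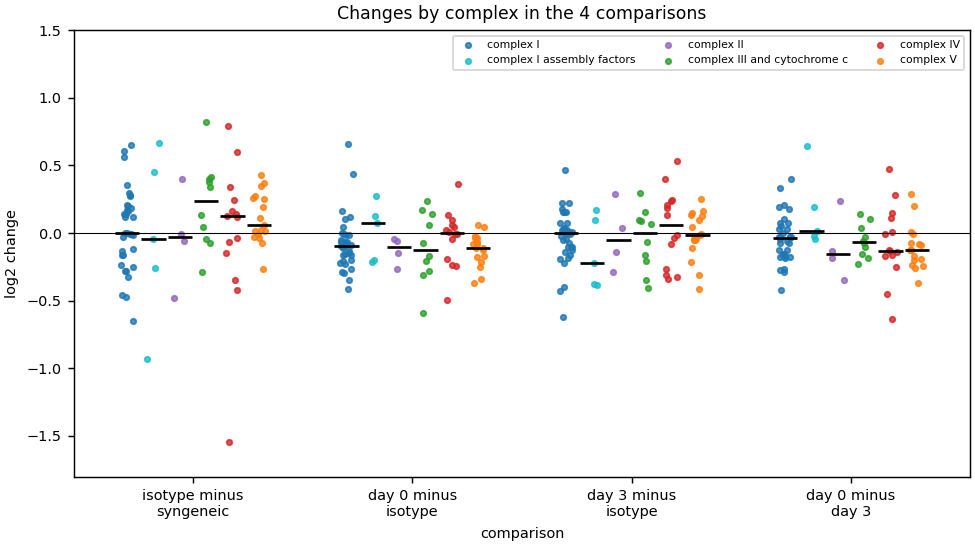
Log2 change of each tested member in the 4 comparisons, with points coloured by complex and black bars for the median of a complex. Most points lie within 0.5 of 0, and Cox6b2 at −1.55 in the isotype against syngeneic comparison is the farthest.

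Genes around the respiratory chain were read from lists chosen by function. Of 38 further assembly factors of the complexes, 28 had a probe set, all were tested, and 1 rose between syngeneic and isotype arrays, a share near the 2.49% of all tested probe sets called higher. Cox17, the copper chaperone of complex IV, read 1190 on the syngeneic array, 2345 and 2373 with isotype, 2307 and 2473 from day 0, and 2177 and 2281 from day 3. All allogeneic arrays were close together and above the syngeneic one (0.96, adjusted p = 0.0365). The call held in 6 of 16 alternative settings (adjusted p from 0.00179 to 0.115) and ended when any 1 allogeneic array was left out, and also with a constant of 16 (0.0509), no filter (0.0764) and the compared groups alone (0.115). Sdhaf2, which inserts flavin into Sdha, was 0.91 (adjusted p = 0.0707), and Sco2, another copper protein of complex IV assembly, was −1.01 (adjusted p = 0.267). The median of the 28 was −0.07, against −0.01 for all tested probe sets.

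Citric acid cycle and pyruvate dehydrogenase genes stayed level like the chain, with 16 of 18 listed genes tested, 0 called, 8 higher and 8 lower, and a median of −0.01. Idh3a, of the isocitrate dehydrogenase, was the highest (0.67, adjusted p = 0.240) and Idh3g of the same enzyme the lowest (−0.27, adjusted p = 0.490). Among 12 tested carriers and channels of the mitochondrial membranes (14 listed), 11 were higher and the median was 0.30. Called higher was 1 of them, where 2.49% of all tested probe sets were called higher. Slc25a5, the ADP/ATP carrier of dividing cells, read 8919 on the syngeneic array, 23620 and 23587 with isotype, 16404 and 17084 from day 0, and 19488 and 16895 from day 3. Its isotype arrays were the highest and the syngeneic array the lowest (1.40 ± 0.20, adjusted p = 0.0133). The call held in 13 of 16 alternatives and ended without isotype array 1 (adjusted p = 0.0521), without isotype array 2 (0.0547) and with the compared groups fitted alone (0.0506). Slc25a4, the ADP/ATP carrier of heart and muscle, was 0.71 (adjusted p = 0.117).

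Of 13 tested regulators of mitochondrial biogenesis (16 listed), 0 were called, 11 were lower and the median was −0.16. Nrf1 (−0.06), Gabpa (0.17), Yy1 (0.01) and Tfam (−0.07), which encodes the factor that packages and transcribes mitochondrial DNA, lay near 0. Myc, a driver of cell growth, was −0.77 (adjusted p = 0.0925), and Ppargc1b, a coactivator, −0.85 (adjusted p = 0.398). No probe set carried the listed symbols of the subunits encoded by mitochondrial DNA. A probe set with the platform symbol ND5, for a complex I subunit of that genome, was picked after its values were seen. It read 12110 on the syngeneic array, 7474 and 7678 with isotype, 7317 and 7512 from day 0, and 6649 and 6698 from day 3. Here the syngeneic array lay above all 6 others (−0.67 ± 0.19, adjusted p = 0.0921). With all 3 allogeneic groups against syngeneic it passed (−0.74, adjusted p = 0.0403). Under 16 alternatives, that one included, ND5 passed in 3 and did not pass in 13.

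Glycolysis genes, a list added after earlier results were known, changed more than the chain. Their median absolute change was 0.99, against 0.20 for the members. Other lists moved as well, with 0.79 for proliferation genes, 0.74 for T cell markers and 2.50 for macrophage markers. Of 15 tested genes (18 listed) 12 were higher and 3 lower, with a median of 0.95. Called higher were 8 and called lower 0, where all tested probe sets gave 2.49% and 4.12%. Ldha, lactate dehydrogenase A, rose from 5472 to 12829 and 12273 (1.19, adjusted p = 0.0203), and Pkm, pyruvate kinase, from 3333 to 8238 and 7463 (1.22, adjusted p = 0.0190). Under 16 alternatives the call of Ldha held in 11 (adjusted p up to 0.0717) and that of Pkm in 13 (up to 0.0708), and both ended when either isotype array was left out. Pdk1, the kinase that restrains pyruvate dehydrogenase, read 1174 on the syngeneic array and 372 and 386 with isotype (−1.51, adjusted p = 0.116).

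**Figure D5:**
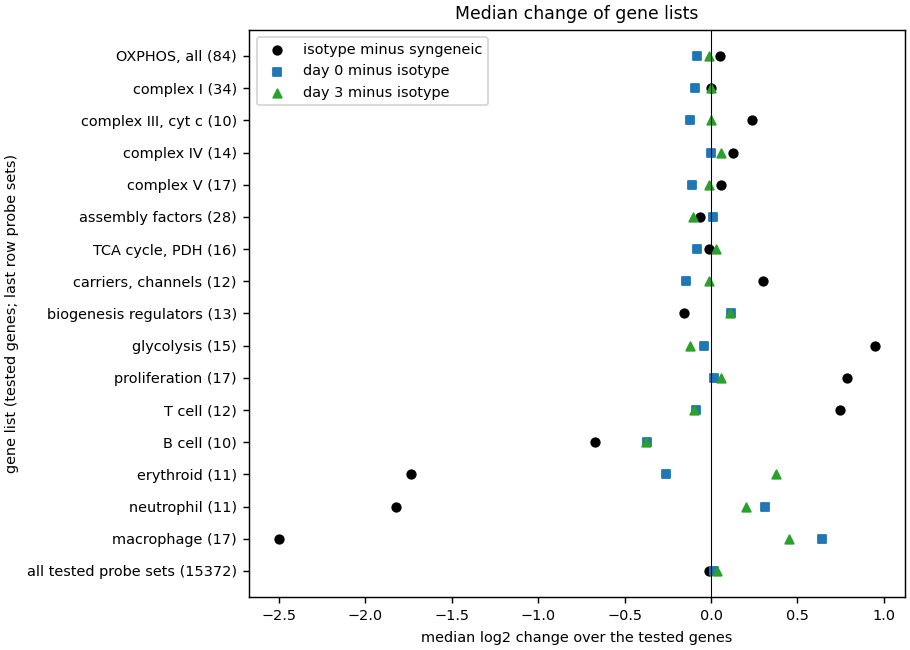
Median log2 change over the tested genes of each list, with the number tested in brackets, for isotype minus syngeneic (circles), day 0 minus isotype (squares) and day 3 minus isotype (triangles). The median of the 84 oxidative phosphorylation genes (0.05) lies near that of all 15372 probe sets (−0.01), while glycolysis (0.95) and macrophage markers (−2.50) lie apart.

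Cell type markers moved with the same comparison, and their part in the values above was not tested. All 17 tested macrophage and monocyte markers were lower and were called (median −2.50). Their summed signal was 89814 on the syngeneic array and 12404 to 20411 on the allogeneic arrays. All 11 tested neutrophil markers were lower and 9 were called (median −1.82, summed signal 42015 against 11078 to 14950). All 11 tested red cell precursor markers were lower and 7 were called (median −1.73, 28065 against 7174 to 11792). All 10 tested B cell markers were lower and 2 were called (median −0.67, 48230 against 22415 to 33149). Of 12 tested T cell markers 10 were higher, and 5 were called higher (median 0.74, 34405 against 45312 to 56487). All 17 tested proliferation genes were higher and 4 were called (median 0.79, 50883 against 76803 to 82957). Over all tested probe sets 2.49% were called higher and 4.12% lower. No marker gene had a signal of 0 on every array. The summed signal of the 86 members was 310904 on the syngeneic array, 348579 and 334893 with isotype, 320040 and 318005 from day 0, and 334134 and 326627 from day 3. The syngeneic sum was the lowest of the 7, and the isotype sums the highest. The members' median on the log2 scale gave another order. This median was 11.53 on the syngeneic array and 11.60 and 11.47 with isotype. From day 0 it was 11.36 and 11.46, and from day 3 it was 11.55 and 11.44. By the median, the syngeneic array thus lay between the isotype arrays and above both day 0 arrays.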

How the data were processed

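RNA of mouse spleen cells was hybridised to 7 Affymetrix arrays. The authors deposited signal intensity per probe set made with MAS5, per the submitters' processing notes; the version is not given in the sources used here. Control probe sets (64 of 22690) were removed. Of the rest, 20380 carried 1 symbol in the platform annotation, 691 several and 1555 none. Another 8 probe sets pairing a member with a further symbol were left out.

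log2(signal + 50) was fitted with limma 3.58.1 in R 4.3.3, as 1 fit over 7 arrays and 4 groups (3 residual and 3.36 prior degrees of freedom). The syngeneic array, being alone, takes its error from the others. Tests were two-sided, with Benjamini-Hochberg adjustment over 15372 probe sets per comparison. The number of arrays limits the precision. The procedure was tested on simulated data.

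Members, lists and tests were chosen with earlier results of these data known. Genes were named by rule: core subunits and isoform pairs; per complex the highest and lowest mean signal, the 3 largest rises and falls and every call; the 3 largest changes either way in other comparisons; members whose probe sets oppose; and list members called or most changed. Ndufaf1, Ndufaf5, Ndufv2, Sdhaf2, Slc25a4, Nrf1, Gabpa, Yy1, Tfam, Myc, ND5 and the glycolysis genes are outside the rule and were picked with their values known. Replicate numbers did not pair arrays (correlations of deviations −0.01, 0.07 and 0.04). Alternatives were constants of 16 and 100, a 60th percentile filter or none, quantile normalization, median centring, a replicate block, a fit to only the groups compared, the trend and robust options of limma, other probe set choices and leaving out each array.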

Additional observations from a re-analysis of the deposited data

How the results depend on the processing

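With 1 syngeneic array and 2 arrays of pooled RNA per group, calls depended on single arrays and settings. For isotype against syngeneic, 1017 probe sets were called, against 1616 with a filter at the 60th percentile, 542 with no filter, 640 with the replicate block, 568 with the compared groups alone, 1786 with trend and robust options, and 410 to 692 with 1 array left out. Members called numbered 1 (0 higher and 1 lower). This became 3 (1 higher and 2 lower: Ndufaf3, Ndufaf4 and Cox6b2) with the 60th percentile filter, which called 1616 of fewer tested probe sets. With trend and robust options, which called 1786 of all 15372 probe sets, it became 7 of 84. Of these, 3 were higher (Cox5b, Ndufa4 and Ndufb8) and 4 lower (Cox6b2, Ndufa3, Ndufaf4 and Ndufc2). The number of members called was 2, both lower, with all 6 allogeneic arrays. It was 0 with a constant of 16, no filter, quantile normalization and the replicate block (Cox6b2 adjusted p = 0.0695), and 0 to 1 with 1 array left out. The replicate block also ended the calls of Cox17 (adjusted p = 0.0815) and Ldha (0.0529), left those of Slc25a5 (0.0360) and Pkm (0.0470), and changed the call of no other named member. The cause of these shifts was not tested, except that a filter changes how many probe sets are adjusted over.

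In the other comparisons 0 members were called under every alternative. All probe sets called went from 0 to 3, 13 and 21 (day 0 against isotype), 2, 8 and 5 (day 3 against isotype) and 6, 7 and 12 (day 0 against day 3) with a constant of 100, the 60th percentile filter, and trend and robust options. The members' median for day 3 against isotype moved to −0.11 under median centring. Centring, which shifts all probe sets of an array alike, moved the members of isotype against syngeneic to 63 higher and 21 lower (all probe sets to 0.08). Quantile normalization gave 46 and 38 and took the members' distance from the median of all probe sets from 0.06 to 0.01. Day 0 against isotype split into 18 and 66 under centring and 30 and 54 under quantile normalization. In isotype against syngeneic, of 847 values of the members named by rule under the alternatives, 8 lost a call and 9 gained one. A reversed sign was counted only for values with a call, and 0 were found. That count does not cover changes of sign among uncalled members. With 1 array left out, the medians of complex II (−0.17 to 0.11) and of the complex I assembly factors (−0.15 to 0.07) crossed 0.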
